A study of Homo sapiens with 27 samples.

Results

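Acetylated H2A.Z peaks that were called under DRB and under neither DMSO nor actinomycin D were examined in HL-60 cells. The members were selected on presence in the authors' peak calls: they are the peaks of the DRB chromatin immunoprecipitation (ChIP) list on chromosomes 1 to 22 that shared no base with the DMSO list or the ActD list. They numbered 7283 of the 28552 DRB peaks on these chromosomes (25.5%), and of 764377 peaks in the 13 peak lists of the series. Of the other DRB peaks, 5728 (20.1%) were shared with ActD only, 2132 (7.47%) with DMSO only and 13409 (47.0%) with both. HL-60 is a human promyelocytic leukaemia line. Cells received 100 µM DRB, 0.8 µM actinomycin D (ActD) or the vehicle DMSO, and other cultures received a non-targeting siRNA (siNTC) or one against MYC (siMyc), with no inhibitor named in their labels. Acetylated H2A.Z (acH2A.Z) and H2A.Z were profiled by ChIP in all 5 states, and nascent RNA was captured in untreated, DMSO, DRB and ActD cells. RNA bound by H2A.Z, acH2A.Z or Tip60 was recovered by RNA immunoprecipitation (RIP) from untreated cells. Each group had 1 library and the length of treatment is not given in the sources used here, so every difference below compares libraries and has no replicate check.

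H2A.Z is a histone variant that replaces canonical H2A in nucleosomes flanking the starts of active and poised genes and at enhancers. Its amino-terminal tail is acetylated by the Tip60 (KAT5) complex, and the acetylated form is found mostly at transcribed genes. DRB is a nucleoside analogue that inhibits CDK9, the kinase of P-TEFb, so that polymerase II initiates but is not released into elongation. Actinomycin D intercalates into GC-rich DNA and blocks the polymerases themselves.

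The strongest members at gene starts differed in base composition, and the 250 bases before the annotated start are shown for 6 genes whose promoter window lay whole inside a member. They run from windows poor to windows rich in CpG, and include the gene with the most GC boxes among the 30 strongest. Sequences are from RefSeq GRCh38.p14, 5′ to 3′ on the gene's strand. Capitals mark any of 11 searched motifs on either strand. In PARVG they mark a TATA box (TATAAA), an E-box (CACGTG) and a CCAAT box (CCAAT, written ATTGG on the other strand). The single run in CHST4 is a GATA site (AGATAA), and the runs in MCF2L, PRKAG2, MAPK8 and DNPEP are GC boxes (GGGCGG or its complement), some of which overlap one another.
PARVG: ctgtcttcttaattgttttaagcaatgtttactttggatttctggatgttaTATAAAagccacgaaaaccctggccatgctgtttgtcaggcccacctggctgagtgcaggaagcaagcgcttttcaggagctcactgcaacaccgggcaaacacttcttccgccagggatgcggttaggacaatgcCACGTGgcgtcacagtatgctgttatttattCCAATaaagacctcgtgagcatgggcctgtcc
CHST4: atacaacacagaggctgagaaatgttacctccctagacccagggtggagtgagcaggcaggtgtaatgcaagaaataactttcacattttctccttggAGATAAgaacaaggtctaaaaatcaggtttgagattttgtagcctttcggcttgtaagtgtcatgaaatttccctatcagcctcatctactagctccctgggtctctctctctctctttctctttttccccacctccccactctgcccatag
MCF2L: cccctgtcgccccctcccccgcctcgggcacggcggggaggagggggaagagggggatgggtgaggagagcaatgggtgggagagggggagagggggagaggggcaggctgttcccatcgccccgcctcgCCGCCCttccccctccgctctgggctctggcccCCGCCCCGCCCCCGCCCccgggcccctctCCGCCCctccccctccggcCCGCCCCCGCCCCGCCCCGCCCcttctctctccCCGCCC
PRKAG2: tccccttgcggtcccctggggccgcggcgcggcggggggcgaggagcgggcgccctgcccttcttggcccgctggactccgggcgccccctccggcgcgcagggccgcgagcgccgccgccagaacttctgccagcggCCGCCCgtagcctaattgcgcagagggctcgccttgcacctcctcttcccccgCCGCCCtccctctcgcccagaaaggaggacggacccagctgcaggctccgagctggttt
MAPK8: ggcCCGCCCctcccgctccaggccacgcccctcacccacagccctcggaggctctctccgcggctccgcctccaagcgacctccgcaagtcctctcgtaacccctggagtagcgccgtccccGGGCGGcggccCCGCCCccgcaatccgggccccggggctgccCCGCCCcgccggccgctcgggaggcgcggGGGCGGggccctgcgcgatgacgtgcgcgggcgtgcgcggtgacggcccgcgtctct
DNPEP: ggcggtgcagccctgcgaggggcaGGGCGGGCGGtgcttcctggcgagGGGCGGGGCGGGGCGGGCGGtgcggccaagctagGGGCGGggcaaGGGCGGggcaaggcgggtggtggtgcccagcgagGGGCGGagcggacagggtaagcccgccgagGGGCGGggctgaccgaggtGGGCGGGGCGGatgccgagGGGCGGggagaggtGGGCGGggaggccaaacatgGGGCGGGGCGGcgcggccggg
PARVG encodes gamma-parvin, a focal adhesion adaptor of blood cells. Its window (chr22:44172701-44172950, plus strand) had 48.4% G and C and 8 CpG, inside a member at chr22:44171413-44174475 with a normalized tag count of 506.6. CHST4 encodes a sulfotransferase that acts on selectin ligands. Its window (chr16:71525870-71526119, plus strand) had 45.2% G and C and 1 CpG, inside a member with 333.4. The window of MCF2L (chr13:112894085-112894334, plus strand) had 80.4% G and C and 10 GC boxes, inside a member with 389.5. PRKAG2 encodes a regulatory subunit of the AMP-activated kinase. Its window (chr7:151877116-151877365, minus strand) had 30 CpG, inside a member with 350.9. MAPK8 encodes the stress kinase JNK1. Its window (chr10:48306427-48306676, plus strand) had 38 CpG, inside a member with 247.2. DNPEP encodes an aspartyl aminopeptidase, and its window (chr2:219387913-219388162, minus strand) had 16 GC boxes, inside a member with 197.7.

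Members were weak and narrow beside other DRB peaks. Because the lists chose the members, these values are a description. The normalized tag count, the number of reads in a peak on the authors' scale, had a median of 24.3 (interquartile range 15.9 to 45.6, from 11.2 to 539.5) in members. It was 38.7 in peaks shared with ActD only, 89.4 in peaks shared with DMSO only and 244 in peaks of all 3 lists. The median width was 776 bp (626 to 1062), against 953, 1408 and 2161 bp, and 1428 members (19.6%) were at the 500 bp minimum. Members held 5.51% of all tags in DRB peaks. Their median fold over control was 18.7. It rested on a median of 13 sample tags, scaled to the control, and of 0.5 control tags, the floor of the control column.

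**Figure D1:**
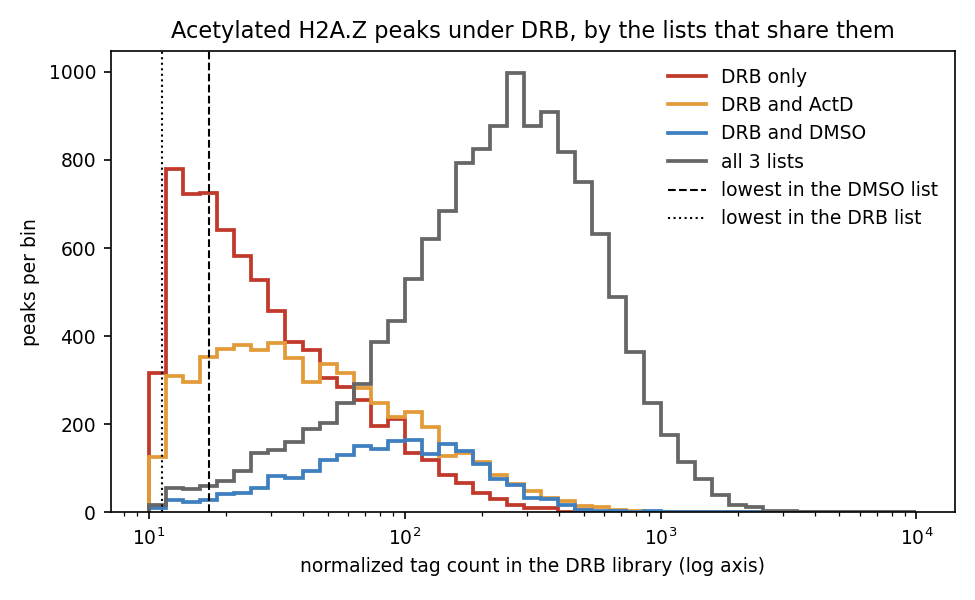
Number of DRB acH2A.Z peaks per bin of normalized tag count (log axis), by the lists that share them. DRB-only peaks (red) pile up at the left, with a median of 24.3, and peaks of all 3 lists (grey) centre near 244; vertical lines give the lowest entry of the DMSO list (17.1) and of the DRB list (11.2).

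The 3 lists did not reach down to the same level. The lowest normalized tag count was 17.1 in the DMSO list, 11.2 in the DRB list and 4.06 in the ActD list. Of the members, 2187 had fewer than 17.1, and of all DRB peaks 3304 (11.6%) had, and 0 lay below the ActD floor. The part of this difference in floors in the number of members was not tested. Members at or above 17.1 numbered 5096. When the 16489 peaks of highest normalized tag count were taken from each list, a setting chosen after seeing the data, 2025 DRB peaks were alone.

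The boundary of the rule fell within short distances. The median gap from a member to the nearest DMSO or ActD peak was 17138 bp, and 374 members (5.14%) lay within 1 kb of one. The closest members, at chr6:7618135-7618635 and in PBX3 at chr9:125759194-125759694, were 6 bp from an ActD peak and had normalized tag counts of 11.7 and 13.2. On the other side, the DRB peak at chr2:144645084-144645584 was no member because it shared 4 bases with an ActD peak, and it had 12.1. Consecutive members lay a median of 116606 bp apart.

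The strongest members were of several kinds. The highest lay outside genes at chr22:45101645-45103464 and had 539.5 under DRB and 27.0 in siMyc, and it was absent from siNTC. It also met H2A.Z peaks under DRB, under ActD and in siNTC. The third, at chr20:31805453-31807583, had 492.2 and was in neither siRNA list nor in any of the other 8 lists. The PARVG member had 506.6 under DRB, 75.8 in siNTC and 83.9 in siMyc. Others of the 10 highest lay outside genes with lower siRNA values. At chr7:74616136-74618526 the values were 477.9, 47.5 and 75.8, at chr3:142278947-142280643 they were 433.9, 7.77 and 11.3, and at chr17:40107168-40109360, 6579 bp from a start of the circadian repressor NR1D1, they were 442.9, 205.4 and 26.8. Of the 10 highest, 1 on chromosome 8 was higher in siNTC (441.4) than under DRB (394.5).

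Inside genes, the 5 highest members lay in ADAMTS17 (374.8), a secreted metalloprotease, BEND3 (369.0), a heterochromatin protein, TFEB (368.7), a regulator of lysosome genes, ZBTB46 (314.5), a zinc finger factor of dendritic cells, and GNG7 (308.6), a G protein subunit. In siNTC the first 3 and the last had 50.6, 63.2, 53.2 and 33.4, and the ZBTB46 member was absent. So all 5 were lower in siNTC or not called there. The widest member covered 6998 bp of GAS7, a growth arrest gene, with 240.0 under DRB, 23.6 in siNTC and 24.4 in siMyc.

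Presence in the siNTC list, which the rule did not use, checks the name of the set. Of the members, 1748 (24.0%, exact 95% interval 23 to 25) shared at least 1 bp with an siNTC acH2A.Z peak, against 50.9% of all DRB peaks. In siMyc it was 666 (9.14%, against 32.9%). Intervals here cover counting error only. In neither siRNA list were 5318 members (73.0%). The name of the set thus refers to the DMSO and ActD lists. It does not mean acetylation found under DRB alone for the 1965 members (27.0%) called in at least 1 list of siRNA-treated cells.

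The share in siNTC was higher in stronger members. It was 7.18% of the 1545 members with a normalized tag count under 15, 27.9% between 30 and 50, 48.0% between 50 and 100, 68.6% between 100 and 200, and 84.4% (81 of 96, interval 75.5 to 91.0) at 200 and over. Other DRB peaks in the same bins were in siNTC at 5.47%, 17.9%, 40.3%, 69.7% and 91.3%. Between 20 and 100 the members' intervals lay above those of other DRB peaks, with 15.7% against 10.0% in the lowest of these bins, and at 200 and over the intervals overlapped (75.5 to 91.0 and 90.7 to 91.9). Peaks called only under ActD differed: 79 of 9851 (0.802%) were in siNTC, and 2 of the 89 with a normalized tag count of at least 100. Peaks called only under DMSO numbered 247, of which 61 (24.7%) were in siNTC. Most of the strongest members were thus also in the siNTC list, and most of the weak ones were not.

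**Figure D2:**
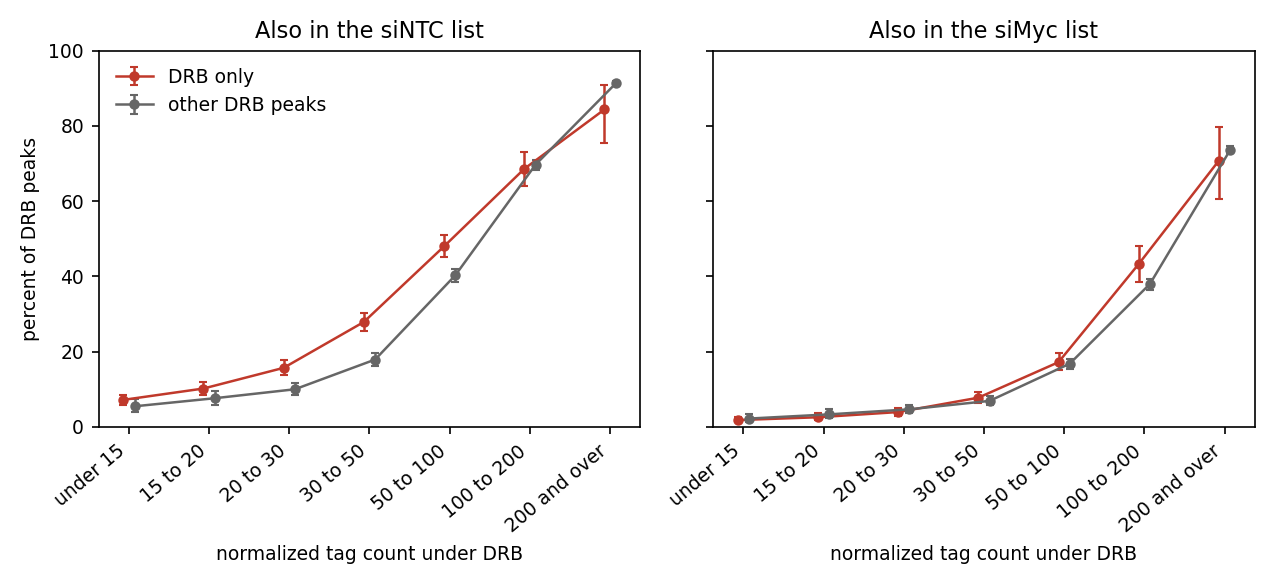
Percent of DRB acH2A.Z peaks that share at least 1 bp with the siNTC (left) or siMyc (right) acH2A.Z list, by normalized tag count under DRB, for DRB-only peaks (red) and other DRB peaks (grey); bars are exact 95% binomial intervals. Both shares are higher at higher tag counts, for DRB-only peaks in siNTC from 7.18% to 84.4%.

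Where a member was in both lists, the levels split. Over the 1748 such members the median was 52.2 under DRB and 45.3 in siNTC, and 855 (48.9%) were higher in siNTC. The middle was thin: 676 (38.7%) had fewer than 20 in siNTC, 680 (38.9%) had 100 or more, and the rest lay between. Members at gene starts were on the high side. Of 558 at a start, 383 (68.6%) had 100 or more in siNTC, with a median siNTC to DRB ratio of 3.67. Inside genes it was 213 of 712 (29.9%) with a median ratio of 0.458, and outside genes 60 of 410 (14.6%) with 0.333. The normalized tag counts were scaled library by library, so a ratio between libraries carries any difference in enrichment between them. In peaks of all 3 lists the ratio was 0.862 at starts, 0.187 inside genes and 0.0931 outside, so starts had the highest ratio in both sets. At starts it was 3.09 in peaks shared with DMSO only and 1.7 in peaks shared with ActD only. A high ratio at starts was thus not particular to members.

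**Figure D3:**
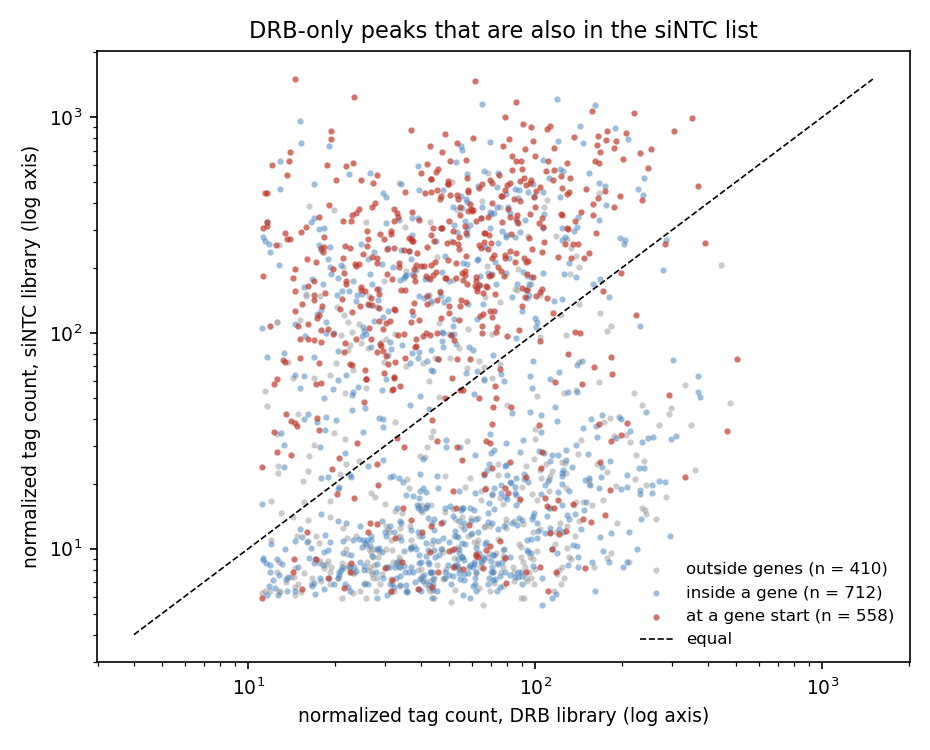
Normalized tag counts of the DRB-only peaks that are also in the siNTC list, DRB library on the horizontal and siNTC library on the vertical axis (both log), coloured by position; chromosome 8 is left out. Points form an upper and a lower cloud, and the 558 peaks at gene starts (red) lie mostly in the upper one, above the dashed line of equal values.

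Gene starts on chromosome 8 were not used here, leaving 6948 members to place. Within 1 kb of a start lay 942 (13.6%, interval 12.8 to 14.4), against 34.8% of all DRB peaks. Another 3465 (49.9%) lay inside genes and 2541 (36.6%) outside, and the median distance to a start was 16996 bp. Of peaks shared with ActD only 10.2% (interval 9.45 to 11.1) were at a start, with a median distance of 24198 bp, while 41.5% of peaks shared with DMSO only and 55.5% of peaks of all 3 lists were at a start. Below a normalized tag count of 50 members were at starts about as often as other DRB peaks, for example 16.1% against 15.8% between 30 and 50. Above it they were there less often, at 21.4% against 27.3%, 24.3% against 44.0% and 20.2% against 64.6% in the 3 upper bins, with intervals that did not overlap. Of the members at a start, the nearest start was that of a protein-coding gene for 648 (68.8%) and of a long non-coding RNA (lncRNA) for 294 (31.2%), against 84.1% and 15.9% in peaks of all 3 lists.

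**Figure D4:**
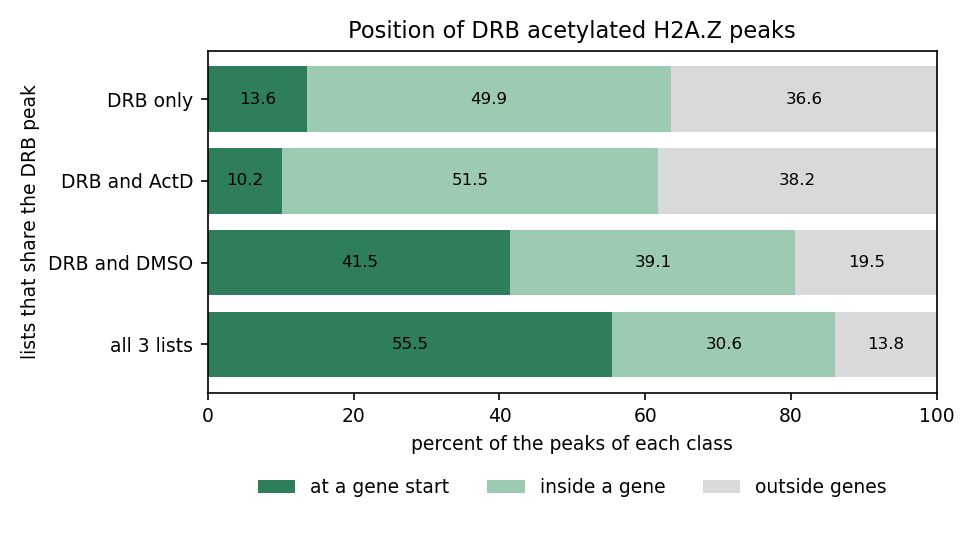
Percent of DRB acH2A.Z peaks within 1 kb of a gene start, elsewhere inside a gene or outside genes, by the lists that share them (chromosome 8 left out). The start share is 13.6% in DRB-only peaks and 55.5% in peaks of all 3 lists.

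Position and presence in siNTC went together. Of members at a start 59.2% were in siNTC, of those inside genes 20.5% and of those outside 16.1%. Of the 5268 members with placed starts that siNTC lacked, 7.29% were at a start, and of the 5064 that both siRNA lists lacked, 7.37%. Among peaks of all 3 lists 94.0% of those at a start were in siNTC.

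Promoter windows in members were rich in G and C. They were less often CpG-rich than those in peaks that DMSO shared, and more often than those in peaks shared with ActD only. In 634 promoter windows of 300 bases that lay whole inside members, the median G and C content was 68.8%, against 58.7% in all 33725 windows and 65.0% in the 10791 inside peaks of all 3 lists. Windows of alternative or neighbouring starts overlap, so they are not independent. The CpG observed over expected ratio had a median of 0.74 in members' windows, 0.581 in all and 0.855 in those of all 3 lists. A member held at least 1 window whole in 517 cases, and in 344 of these (66.5%) a window had a ratio of at least 0.6, against 54.6% in peaks shared with ActD only, 86.1% in those shared with DMSO only and 91.1% in peaks of all 3 lists. Of the 344, 299 (86.9%, interval 82.9 to 90.3) were in siNTC and 45 (13.1%) in siMyc, and those in siNTC had a median siNTC to DRB ratio of 4.11. Of the 173 below 0.6, 75 (43.4%, interval 35.9 to 51.1) were in siNTC, with a ratio of 0.334. Peaks shared with ActD only divided in the same way, at 88.2% and 40.8%, and peaks of all 3 lists at 97.1% and 80.1%.

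The promoters printed above show both kinds, as picked examples. The CpG-rich MAPK8 member had 247.2 under DRB and 582.7 in siNTC, the PRKAG2 member 350.9 and 985.4, and the DNPEP member 197.7 and 432.7. The CpG-poor CHST4 member had 333.4 and 21.5, and that of PARVG 506.6 and 75.8. The MCF2L member had 389.5 and 260.2. Its printed window had 80.4% G and C but 21 CpG, fewer than those of PRKAG2 (30), DNPEP (30) and MAPK8 (38). Not every strong member over a window with many CpG was higher in siNTC. That of COTL1 (25 CpG) had 185.6 under DRB and 64.6 in siNTC, and that of RGS16 (22 CpG) had 184.2 and 77.4. The start member of ASIC1, a proton-gated channel, had 370.5 and 481.8. In siMyc these members had 19.5 at CHST4, 83.9 at PARVG, 36.9 at MCF2L, 44.1 at ASIC1 and 13.4 at DNPEP, and were absent at MAPK8 and PRKAG2. The siMyc list as a whole had a median of 15.4, against 101 in siNTC. Per the file headers, the siNTC list scaled the sample to the control and the siMyc list the control to the sample. The part of this scaling in the siMyc and siNTC values was not tested.

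Motif letters were counted in the same windows, on both strands. The GC box was in 68.6% of members' windows (45.0% of all windows, 70.6% in peaks of all 3 lists). CACGTG, the E-box that MYC and MAX bind, was in 11.0% (7.18% and 10.6%). The ETS site CCGGAAGT was in 1 of the 634 (0.158%, interval 0.00399 to 0.876), against 4.19% of all windows and 10.4% in peaks of all 3 lists. It was also rare in windows of peaks shared with ActD only (0.436%) but not in those shared with DMSO only (6.57%). The PU.1 site GAGGAAGT, which shares its last 6 letters with that ETS site, was in 3.94% (2.58% and 2.84%). The cAMP response element TGACGTCA was in 1.1% (1.87% and 3.55%), CCAAT in 26.0% (34.4% and 35.4%), TATAAA in 5.36% (11.6% and 4.8%), the AP-1 site TGANTCA in 6.15% (7.67% and 3.99%), TGTGGT for RUNX in 8.68% (13.1% and 9.18%), AGATAA for GATA in 4.1% (10.4% and 4.68%), and TTGCGCAA for C/EBP in 0.158% (0.154% and 0.204%). A match is a run of letters and not a bound site.

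The other lists met members less often than all DRB peaks. In 1 bin of matched tag counts, 50 to 100, most H2A.Z lists met both at similar shares, and 2 RIP lists met members more often. That bin held 1114 members and lies above the members' upper quartile of 45.6, so it does not match the typical member. H2A.Z peaks under DRB met 2.72% (198), against 11.0% of all DRB peaks. H2A.Z peaks met 0.0687% (5) under DMSO, 1.57% under ActD, 2.55% in siNTC and 5.38% in siMyc, against 3.75%, 5.13%, 7.95% and 15.1%. RIP peaks of untreated cells met more of them, at 23.4% for acH2A.Z, 22.2% for Tip60 and 5.84% for H2A.Z, against 30.4%, 27.1% and 9.75%. The 3 RIP lists hold 264469, 249628 and 99234 peaks. At normalized tag counts of 50 to 100 the H2A.Z lists met 3.23% of members and 2.68% of other DRB peaks under DRB, 1.97% and 2.5% under ActD, 4.31% and 4.64% in siNTC, and 8.98% and 8.44% in siMyc, with intervals that overlapped, and the H2A.Z RIP list met 6.82% and 7.4%. Under DMSO it was 0.0898% (1 peak) and 0.773%. In the same bin the acH2A.Z RIP list met 31.1% of members (interval 28.4 to 33.9) and 23.8% of other DRB peaks (22.4 to 25.3), and the Tip60 RIP list met 26.6% (24.0 to 29.3) and 22.1% (20.7 to 23.6).

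Members were spread over all autosomes, from 20.1% of the DRB peaks on chromosome 4 to 36.9% on chromosome 22 (227 of 616, interval 33.0 to 40.8). They fell in the bodies of 3809 genes, of which 3044 held 1. CCDC26, a lncRNA gene in the 8q24 region downstream of MYC, held the most, 28 in 328546 bp. GNG7 followed with 12 in 191476 bp, and CDH23, a cadherin of the inner ear, with 10 in 419028 bp. ERG, an ETS factor, and LINC00299 had 9 each, in 294523 and 320649 bp. Other DRB peaks in these bodies are not given here, so the counts do not show whether the genes are particular to members. CCDC26 nascent RNA had 165 counts in DMSO, 29 in DRB and 116 in ActD. CDH23 and ERG had at most 8 and 4 counts in any of the 3 libraries, and GNG7 and LINC00299 had 0, so these genes held many members with little or no nascent RNA. Sequenced input DNA over CCDC26 exons was 2.3 times the median gene per kb in DMSO, 0.836 in DRB and 1.51 in ActD, on 17, 6 and 12 counts, too few to rank. The part of copy number in the 28 members was not tested.

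A DRB-only peak lay within 1 kb of a start of 1052 genes, of 26246 with a start on the autosomes used (4.01%). At 944 of them it was the only DRB acH2A.Z peak, and 108 also had another. By type, 706 were protein-coding and 346 lncRNA genes, and 804 were matched to the RNA tables, which is 4.38% of 18345 matched genes. Where the member stood alone, 49.0% of 604 protein-coding genes reached 1 CPM (counts scaled to the library total) of nascent RNA in DMSO cells. That compares with 88.7% of 8255 with another DRB peak at the start and 10.4% of 5724 with none. Per kb of transcript, genes at or above that level had a median of 2.71 CPM where the member stood alone, 11.5 with another DRB peak and 2.7 with none. Genes with a lone member thus lay between the other groups in how often they were detected, and at the low level of genes without a peak. For the lone members' genes the share was 31.1% in DRB, 21.7% in ActD and 54.1% in untreated nascent RNA. With another DRB peak it was 68.8%, 67.8% and 92.3%, and with none 7.39%, 6.52% and 11.7%.

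Among 16 gene lists, members were found at the starts of few genes, and with 4.38% as the base share most lists are too short for their counts to stand apart from it. In the promyelocyte granule list 3 of 10 genes with a start had one, SERPINB1, an inhibitor of neutrophil proteases (174.4), PRSS57, a granule serine protease (20.3), and PRTN3, proteinase 3. Among myeloid transcription factors and receptors it was 2 of 18, KIT, the stem cell factor receptor (56.0), and CEBPE, a factor of granulocyte maturation (32.5). Among immediate early and labile transcripts it was 2 of 26, KLF2 and DUSP1, a phosphatase of MAP kinases, and among neutrophil and monocyte genes 1 of 16, FPR2, a formyl peptide receptor. Lineage genes of other blood cells had a few, TAL1 in 1 of 7 erythroid genes and CD79A and LCK in 2 of 13 lymphoid genes. Among p53 targets and apoptosis regulators 1 of 23 had one, BBC3, which encodes PUMA. CEBPE, DUSP1 and PRTN3 also had another DRB peak at a start, one that DMSO or ActD shared. None was found at the 23 G2 and mitosis genes, 25 S-phase genes, 37 replication-dependent histone genes, 32 ribosomal protein genes, 14 snoRNA hosts, 21 genes of H2A.Z and its SRCAP and TIP60 complexes, 25 P-TEFb and elongation genes, 8 nuclear lncRNAs or 8 epithelial and fibroblast genes. In those lists, other than the last, between 75% and 100% had another DRB peak at the start, against 51.7% of all matched genes.

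Of the listed genes with a member, 4 passed the filter on nascent RNA described below, and 2 of them, CEBPE and SERPINB1, were at least 2-fold lower under DRB. Of all 12121 genes measured 54.7% were, so these 2 do not stand apart from that share. CEBPE had 1738 nascent counts in DMSO, 140 in DRB and 103 in ActD, and SERPINB1 had 66, 20 and 1, which is near the median gene under DRB. PRTN3 was the most abundant, at 426.5 CPM in DMSO, 236.6 in DRB and 388.0 in ActD, under 2-fold. Below the filter, FPR2 had 31, 8 and 0, CD79A 17, 0 and 0, and BBC3 19, 0 and 0. KIT, TAL1 and LCK had 0 in all 3. KLF2 had 0 in DMSO and DRB and 61 in ActD, at least 23.3-fold higher in ActD when 3 counts stand for 0.

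Nascent RNA of genes with a member at the start was measured for 349 genes, those that passed a filter of a mean of 1 CPM and 20 summed counts over the DMSO, DRB and ActD libraries. A gene can pass through 1 library where it is high. In DMSO, DRB and ActD the libraries held 14426368, 14339264 and 12600067 counts, and fold changes are on the log2(CPM + 1) scale, which understates changes of low genes. The median DRB to DMSO log2 ratio was -0.87 (interval of the median -1.22 to -0.70), against -1.19 over all 12121 genes measured. At least 2-fold higher in DRB were 46 (13.2%, against 9.1% of all genes), and at least 2-fold lower were 170 (48.7%, against 54.7%). Genes with no DRB peak at the start stood further from all genes, with a median of -0.63 and 27.5% higher, so the larger share higher is not particular to genes with a member. Relative to the median gene, the members' genes had a median of 0.32, with 119 higher (34.1%, against 24.9% of all genes) and 75 lower (21.5%, against 26.4%). With CPM computed without mitochondrial, ribosomal RNA and polymerase III genes, which moved the median of all genes to -0.70, the members' median was -0.53, with 95 higher (23.3%, against 15.8%) and 174 lower (42.6%, against 44.5%) of 408. The sign of the median therefore depended on the scale. With genes at 0 in 1 library set to their bound of 3 counts the medians were -1.05 and -1.24. Input DNA of 611 genes with a member had a median DRB to DMSO log2 ratio of 0.0 (-0.08 to 0.05).

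Under ActD these genes had a lower median than all genes. The median ActD to DMSO log2 ratio was -1.51 (-1.85 to -1.29), against -1.01 over all genes. At least 2-fold higher were 63 (18.1%, against 15.4%) and lower 213 (61.0%, against 50.1%). Both comparisons use the same DMSO library. Of the 349 genes, 115 were at least 2-fold lower under both inhibitors, the same 33.0% as of all genes, and 7 were higher under both (2.01%, against 1.53%). Another 20 were higher under DRB and lower under ActD (5.73%, against 2.55%), and 21 the reverse (6.02%, against 6.14%).

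**Figure D5:**
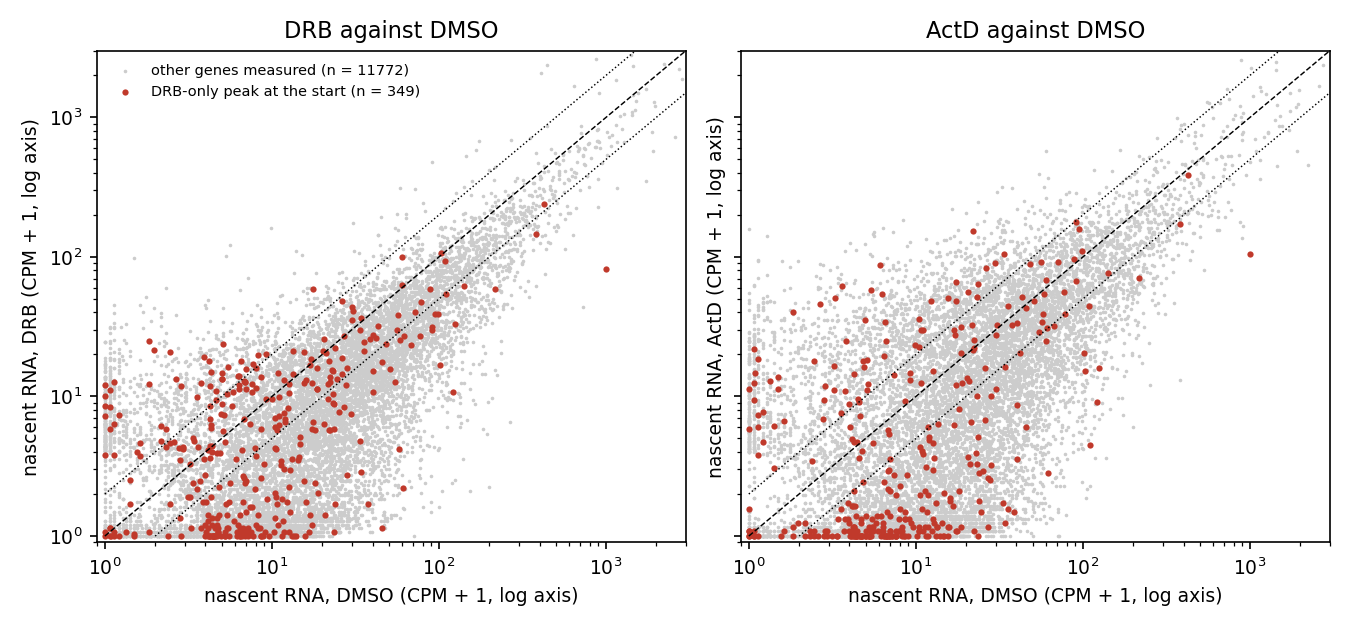
Nascent RNA per gene in DMSO (horizontal) against DRB (left) or ActD (right), as CPM + 1 on log axes, 1 library each. Red points are the 349 genes with a DRB-only peak at the start and grey points the other genes measured; dashed lines mark equal values and dotted lines 2-fold, with 46 red genes above and 170 below the 2-fold lines for DRB.

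The 10 genes highest under DRB were low or silent in DMSO, with at most 21 counts. TSPAN5, a tetraspanin, had 12 counts in DMSO, 345 in DRB and 2 in ActD, and its count ratio of DRB to DMSO had a log2 interval of 4.03 to 5.82. LCTL, a klotho-family glycosidase homologue, had 14, 293 and 3, and CYP2U1, a cytochrome P450, had 21, 282 and 0. HTR2A, a serotonin receptor, had 0, 158 and 1, at least 53-fold higher in DRB. The same bound was 43.9-fold for LINC00243 (0, 131 and 0) and 36.6-fold for EPHX1, microsomal epoxide hydrolase (0, 109 and 1). ACVR2B-AS1 had 2, 167 and 0, RNF212B 1, 145 and 1, FGF7, a fibroblast growth factor, 1, 107 and 0, and PRR7, a proline-rich membrane protein, 12, 163 and 0. The rule that named them fixes that they are high in DRB, and several passed the filter through that library alone. They had 3 counts or fewer in ActD. The untreated nascent library also had little, between 0 and 2.19 CPM. Whether reads of ACVR2B-AS1 come from its own strand or that of ACVR2B is not known, since strand use in counting is not given in the sources used here.

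The 10 genes lowest under DRB included well transcribed ones. SLC29A1, the equilibrative nucleoside transporter, had 640 counts in DMSO, 2 in DRB and 526 in ActD. AXIN1, a scaffold of the beta-catenin destruction complex, had 527, 10 and 395, and MTA3, a NuRD subunit, had 287, 6 and 151. These 3 had another DRB peak at a start beside the member, and so did IRS2, the insulin receptor substrate, with 330, 10 and 10. KLHDC7B had 327, 1 and 0, DISP2, a dispatched-family membrane protein, 226, 1 and 8, AHDC1, a DNA-binding protein, 235, 3 and 1, and TNFSF14, the cytokine LIGHT, 187, 0 and 0, at least 62.0-fold lower in DRB. FAM72A had 869, 17 and 376, but it has near-identical copies, so its counts are uncertain, and the same holds for MIR1302-9HG with 214, 0 and 2. In untreated nascent RNA some of these genes were far below DMSO, KLHDC7B at 0.477 against 22.7 CPM, MIR1302-9HG at 0.278 against 14.9 and FAM72A at 8.85 against 60.2, so their ratio rests on a DMSO value the untreated library does not share. SLC29A1 (50.1 against 44.4 CPM), AXIN1 (36.6 against 36.5) and MTA3 (14.2 against 19.9) were near theirs, and IRS2 was higher untreated (59.4 against 22.9). The first 3 had counts of the same order under ActD as in DMSO, while KLHDC7B, DISP2, AHDC1, IRS2 and TNFSF14 had 10 or fewer.

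The genes of the strongest start members showed no common direction. PARVG had 791 counts in DMSO, 415 in DRB and 1148 in ActD. PRKAG2 had 101, 150 and 1, ASIC1 had 16, 0 and 17, and MCF2L had 0 in all 3. MAPK8, IKBKE and NIBAN3 were picked by hand, and stronger start members such as CHST4 (333.4) and PRRT4 (304.1) were passed over. MAPK8 had 209, 166 and 0, and NIBAN3 had 5, 0 and 0. IKBKE, an IKK-related kinase whose start member had 293.0, had 46, 0 and 8. Untreated nascent RNA was well above DMSO for IKBKE (22.4 against 3.19 CPM), ASIC1 (7.99 against 1.11), NIBAN3 (3.22 against 0.347) and MCF2L (3.58 against 0). For PARVG it was 138.0 against 54.8. PRKAG2 (8.11 against 7.0) and MAPK8 (9.46 against 14.5) were nearer their DMSO values. TERT, the catalytic subunit of telomerase, was singled out after its values were seen. Its start member had 177.4 under DRB and 862.5 in siNTC, and its nascent RNA was 5.55 CPM in DMSO (80 counts), 16.8 in DRB (241) and 33.3 in ActD (419). It was 52.3 CPM in untreated nascent RNA, so the DMSO library was the lowest of the 4 and both inhibitors lay below untreated cells. ADAMTS17 and ZBTB46, which held strong members inside the gene and another at the start, had 176, 0 and 0, and 96, 229 and 12.

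The label of the cells was checked on nascent RNA. Of 16 promyelocyte granule genes 13 reached 1 CPM in DMSO, against 2 of 19 erythroid, 7 of 19 lymphoid and 2 of 18 epithelial and fibroblast markers. Summed lymphoid marker levels were 39.6 CPM in DMSO, 10.2 in DRB and 31.6 in ActD, where 7, 2 and 1 of the 19 reached 1 CPM. The highest in DMSO was CD4 (15.74). In DMSO the erythroid list was carried by TFRC (150.5 of 152 CPM). The epithelial and fibroblast list was carried by VIM, which leukocytes also express (170.0 of 176). At 0 counts in DMSO were 16 of the erythroid, 10 of the lymphoid and 13 of the epithelial and fibroblast markers. No deposited list was used for the IgG libraries, so the background of the antibody at members was not analysed here.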

How the data were processed

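HL-60 libraries were grouped by their titles and treatment labels, 1 per group, so no test between conditions was made and no p-value of a comparison is given. Reads were trimmed and quality-checked with Trim Galore, cutadapt and FastQC and mapped with STAR 2.5.2b to GRCh38, and HOMER was used, per the submitters' processing notes. Peaks carry, per the file headers, a normalized tag count (a signal), which HOMER by default gives scaled to a fixed total of tags, a find-peaks score, a fold ratio over a control and a p-value against it; the authors deposited 1 list per library. Which library served as control is not given in the sources used here. The authors deposited gene tables of expected counts, from which CPM was computed over all genes; log2 ratios used a pseudocount of 1 CPM, and expected counts were rounded for intervals.

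Overlap needed 1 shared bp. Position used starts of RefSeq GRCh38.p14 promoters within 1 kb, which were not used for chromosome 8 (335 members were not placed). No genome was given, so windows before gene starts are printed in place of peak centres. Called means past 2-fold. Intervals are exact binomial (Clopper-Pearson, 95%), for a median from order statistics, and cover counting error only. A library count of 0 was bounded with 3 counts. The depths were 14426368 (DMSO), 14339264 (DRB), 12600067 (ActD) and 25167597 (untreated) nascent RNA counts, 12679342 total RNA counts, and 440923 to 469547 input counts.

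Named peaks were the 10 members with the highest tag counts, the 5 highest at starts, inside and outside genes, the 5 widest and those nearest the boundary of the rule. Named genes were the 10 highest and 10 lowest DRB to DMSO ratios with at least 100 summed counts, and up to 2 per list with the strongest member. Genes of named peaks and those that held the most members were added, and TERT, MAPK8, IKBKE and NIBAN3 were picked by hand. Members, gene lists and rules were chosen with earlier results of these data known. Interval and ratio code was tested on simulated data. Computation used Python 3.11.15, pandas 2.3.3, numpy 2.4.6, scipy 1.17.1 and matplotlib 3.10.9.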

Additional observations from a re-analysis of the deposited data

Results flagged for a closer look

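Among the named genes with a DRB-only peak at the start, 2 were at least 2-fold higher under one inhibitor and at least 2-fold lower under the other, with counting intervals of both ratios on opposite sides of equality. CYP2U1, a cytochrome P450, had 21 counts in DMSO, 282 in DRB and 0 in ActD, log2 ratios to DMSO of 3.07 and -1.30. ZBTB46, a zinc finger factor, had 96, 229 and 12, log2 ratios of 1.15 and -1.97. Both were higher under DRB and lower under ActD. By 2-fold calls alone, 2.55% of all genes measured and 5.73% of members' genes were so, and 6.14% and 6.02% the reverse. CYP2U1 was named for its high DRB to DMSO ratio, so that side of its contrast was fixed by the choice. The difference between the inhibitors was not tested, since each had 1 library, and both ratios use the same DMSO library.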

How the results depend on the processing

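No paired analysis was possible because each group had 1 library and no result came from a test. The number of DRB-only peaks, 7283, lay between 5096 and 10016 under the other planned and added settings except with the 16489 peaks of highest normalized tag count from each list, an alternative chosen after seeing the data, which left 2025. The median normalized tag count of 24.3 was 23.2 for a fold of at least 8, 33.9 when a peak counted as shared only if 0.5 or more of it was covered, and 20.3 for members absent from both siRNA lists (added after seeing the data), and the median width of 776 bp was 924 and 754 bp under the latter settings. The start share of 13.6% was 12% within 500 bp and 26.6% within 5 kb. Added after seeing the data, it was 15.7% above the DMSO floor and 7.37% for members absent from both siRNA lists. The share in siNTC of 24.0% was 18.0% when the siNTC peak had to cover 0.5 of the DRB peak, and 31.1% above the DMSO floor. The median nascent log2 ratio of -0.87 was -0.58 with a pseudocount of 5 CPM, -0.60 without a filter, -0.53 without mitochondrial, ribosomal RNA and polymerase III genes, and reversed to 0.32 when centred on the median gene (-1.19). It was -1.19 with a 5 kb window and -1.18 for members absent from both siRNA lists, both near the median of all genes. All 20 genes named as highest or lowest under DRB kept their direction and 2-fold call on the 4 alternative scales and pseudocounts. They were chosen as the most extreme ratios of these same libraries, so that outcome was largely fixed by the choice. Where a cause is not given by the construction, the cause was not tested. Depth differs between the lists' floors, and its part was not tested.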
